A study of Mus musculus with 6 samples.

Results

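Heme is the iron-containing porphyrin that sits in cytochromes, catalase and many other proteins, and the genes described here encode enzymes that make it and take it apart. They were taken from the authors' deposited table by gene symbol as 9 genes of 16472. The breakdown genes are Hmox1, Hmox2, Blvra and Blvrb, and the synthesis genes are Alad, Uros, Cpox, Ppox and Fech. All 9 had a line in the table and an adjusted p-value. The libraries came from HT22, an immortalised line derived from mouse hippocampus, grown in serum-containing medium. A set of 3 libraries came from cells given AA147, a compound known to activate ATF6, which senses misfolded protein in the endoplasmic reticulum, and NRF2, which governs the response to oxidative stress, at a concentration that the labels spell as 10 mM. The other 3 came from cells given DMSO, the vehicle, and both groups were collected after 16 h. The labels name no genetic change in either group. They also do not say whether the 3 libraries of a group came from separate cultures, so p-values measure the spread between these libraries only.

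Synthesis starts in the mitochondrion, where ALAS joins glycine to succinyl-CoA, continues in the cytosol through ALAD, UROS, UROD and others, and returns to the mitochondrion, where CPOX, PPOX and FECH finish the porphyrin ring and insert iron. The first step is the rate-limiting one, and heme itself represses it. Breakdown starts with heme oxygenase, which opens the ring and releases iron, carbon monoxide and biliverdin, and biliverdin reductase then turns biliverdin into bilirubin. HMOX1 is the inducible oxygenase and a textbook target of NRF2, held down by the heme-binding repressor BACH1, while HMOX2 is the constitutive form that is abundant in neurons.

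The authors' deposited table gives 1 line per gene, with a mean normalized count over the 6 libraries, a log2 fold change, its standard error (SE) and raw and adjusted p-values. Values of single libraries, their depth and the spread within each group were not analysed here. The numerator of the fold change is not named, and a positive value is read as higher with AA147. Because Hmox1 and Blvrb are themselves known NRF2 targets, their positive sign is not independent of that reading, and every direction below would turn if the table were vehicle over AA147. A gene is called where its adjusted p-value was under 0.05. Of the 13597 genes with an adjusted p-value in the authors' deposited table, 20.2% were called, 9.05% with a positive and 11.1% with a negative fold change.

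As a check of the cell type, 2 of 10 neuronal markers had a line in the authors' deposited table, Tubb3 with a mean of 1199 and Dlg4 with a mean of 1653, and the other 8, among them Map2, Rbfox3 and Snap25, were not analysed here. All 5 mesenchymal markers had a line, with means from 2168 for Thy1 to 254004 for Col1a2 in the authors' deposited table. Several markers moved with the treatment, and the authors' deposited table gave log2 fold changes of -1.52 for Col1a1, -0.97 for Col1a2 and -0.97 for Pdgfrb, all called, while Vim at -0.08 and Thy1 at -0.03 were not called. Tubb3 was called positive at 0.43 and Tmem119, the 1 microglial marker of 4 with a line, negative at -0.49, per the authors' deposited table. The part of these shifts in the results below was not tested. Red cell precursors, which run a dedicated heme pathway, left little trace. In the authors' deposited table, 5 of 8 erythroid markers had a line, and their means ran from 3.36 for Epor to 16.9 for Hba-a1, with Alas2, the erythroid form of the first synthesis enzyme, at 5.44. In these bulk libraries a change in the number of cells of a type and a change in RNA per cell cannot be told apart.

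Of the 9 genes, 2 were called, both positive and both in breakdown. That is 22.2% of the 9 genes, close to the 20.2% of all genes tested and the 23.8% of the 8618 genes whose means lay between those of the lowest and the highest of the 9. The number of calls among the 9 genes was therefore near that of genes in general, and no test was made of how the 2 calls fell between breakdown and synthesis. Blvrb had about a doubling, Hmox1 a modest rise, and the remaining 7 genes did not pass the test.

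The pair of biliverdin reductases gave the clearest contrast, so the sequences just upstream of an annotated start of each gene are shown first. They come from RefSeq's promoter windows on GRCm38.p6, cover the 250 bases before an annotated transcription start, and both lie on the plus strand. Capitals mark the core of the antioxidant response element, TGACNNNGC, which NRF2 and BACH1 are known to bind with small MAF proteins, searched on both strands. The sequence of Blvrb is chr7:27447728-27447977 and that of Blvra is chr2:127070407-127070656.
Blvrb: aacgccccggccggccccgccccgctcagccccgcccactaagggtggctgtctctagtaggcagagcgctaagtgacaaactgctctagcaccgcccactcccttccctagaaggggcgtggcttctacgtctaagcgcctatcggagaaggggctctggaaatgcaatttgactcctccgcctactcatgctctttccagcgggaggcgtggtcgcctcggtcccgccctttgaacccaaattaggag
Blvra: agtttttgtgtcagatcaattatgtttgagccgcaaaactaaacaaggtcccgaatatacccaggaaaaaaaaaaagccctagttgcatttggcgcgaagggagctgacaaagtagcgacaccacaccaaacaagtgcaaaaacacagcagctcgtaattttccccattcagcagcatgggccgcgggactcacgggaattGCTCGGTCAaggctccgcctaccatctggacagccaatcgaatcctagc
The Blvrb stretch ends just before the gene's first annotated base, while the Blvra stretch ends just before a start 28 bases inside its gene, so the stretches are not placed alike. The Blvra stretch held 1 match, on the minus strand, and the Blvrb stretch held none. A second Blvrb window, at another annotated start, held none either. Of all 32851 windows, 10.2% held a match in these 250 bases. Among the other genes of the set, Hmox2, Alad, Uros, Cpox and Ppox had windows and none held a match, and Hmox1 and Fech were not among the windows used. A match describes letters in a window and is not evidence of binding, and its absence says nothing of sites elsewhere.

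Blvrb encodes biliverdin reductase B, which is also known as a flavin reductase. Enzyme activity was not measured, so the RNA values of Blvrb are not a measure of heme breakdown. The mean of Blvrb in the authors' deposited table was 7085 normalized counts, higher than that of 95.4% of genes. With equal group sizes and the fold change as given, this mean corresponds to 4533 normalized counts with vehicle and 9638 with AA147. The log2 fold change in the authors' deposited table was 1.09 (SE 0.072, adjusted p 1.35e-49), a 2.13-fold higher level with a 95% interval from 1.93 to 2.34. Of the 10633 genes whose mean was at least 100, 99.7% had a lower log2 fold change. The standard error of Blvrb was 1.15 times the median SE of the 500 genes nearest to it in mean, so its error was of ordinary size.

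Blvra encodes biliverdin reductase A, the main reductase of adult tissues. Its mean in the authors' deposited table was 1462 normalized counts, with implied group means of 1439 for vehicle and 1484 for AA147. The log2 fold change of 0.04 in the authors' deposited table was smaller than its SE of 0.076 and did not pass the test (adjusted p 0.756). Its 95% interval ran from -0.11 to 0.19, so a change of the size seen in Blvrb lay far outside it. The difference between the log2 fold changes of Blvrb and Blvra was 1.04, with a combined SE of 0.105 and an interval from 0.84 to 1.25. This SE treats the 2 errors as independent, because the table holds no covariance, and no p-value was derived from it; 5 such differences between genes were computed. Per kilobase of the canonical transcript, the implied level of Blvrb was 3.25 times that of Blvra with vehicle and 6.70 times with AA147. Per kilobase of coding sequence the ratios were 4.51 and 9.30, so Blvrb was the more abundant transcript in both groups by either length.

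**Figure D1:**
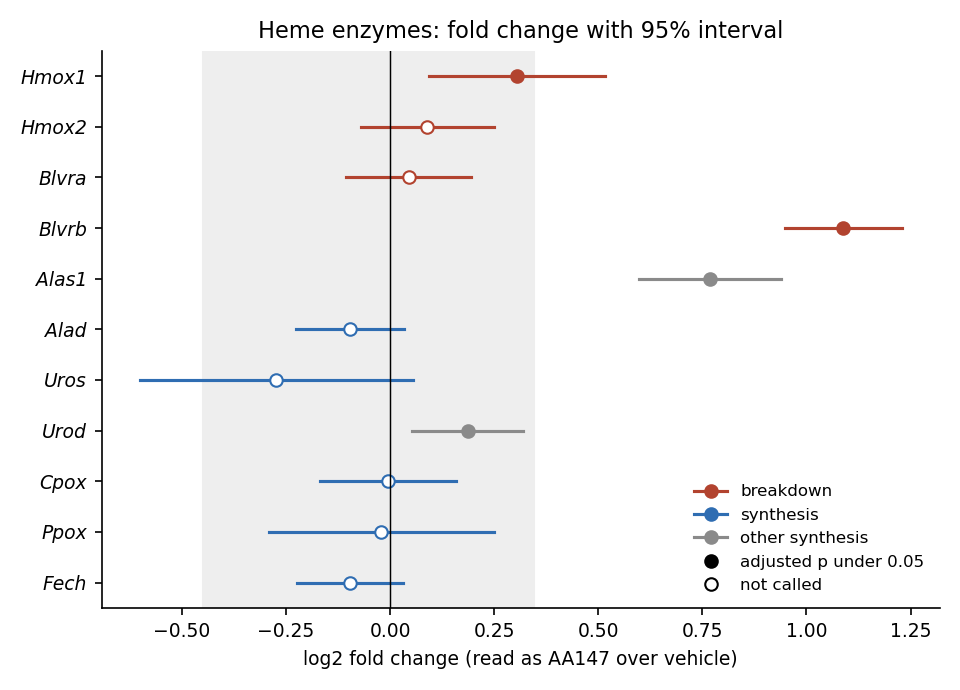
Log2 fold change of each heme enzyme (horizontal axis, read as AA147 over vehicle) with its 95% interval, breakdown genes first and synthesis genes in pathway order, without Alas2, which had no adjusted p-value. Filled points had an adjusted p under 0.05, open points did not, and the grey band holds the central 90% of genes with a mean of at least 100 (-0.45 to 0.35). Blvrb at 1.09 and Alas1 at 0.77 lie outside the band with their whole intervals.

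Hmox1, the inducible heme oxygenase, had a mean of 881 normalized counts in the authors' deposited table, with implied group means of 788 for vehicle and 974 for AA147. Its log2 fold change was 0.30 (SE 0.108, adjusted p 0.0272), per the authors' deposited table, which is a 1.24-fold higher level with a 95% interval from 1.07 to 1.43. This call was lost at an adjusted p under 0.01 and with a Bonferroni adjustment. Hmox2, the constitutive form, had a mean of 2417 normalized counts and a log2 fold change of 0.09 (SE 0.082, adjusted p 0.508), per the authors' deposited table, and was not called. Hmox1 lay 0.22 above Hmox2 on the log2 scale, with a combined SE of 0.135 and an interval from -0.05 to 0.48. A difference between the 2 oxygenases was therefore not shown, although 1 was called and the other was not. The interval of the difference between Blvrb and Hmox1, from 0.53 to 1.04 around 0.78, did not include 0, so by this measure Blvrb had the larger change.

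Which oxygenase was the more abundant depended on the length used. Per kilobase of the canonical transcript, Hmox1 made up 59.7% of the summed level of both oxygenases with vehicle and 63.3% with AA147. Per kilobase of coding sequence, it made up 26.8% and 29.9%. The canonical Hmox2 transcript of GENCODE M39 is 6948 bases long with 945 coding bases, and 59.5% of its exon bases also lie in exons of Cdip1. The libraries were not stranded, so reads from that stretch cannot be assigned to either gene by strand. In the authors' deposited table Cdip1 had a log2 fold change of 0.08 (SE 0.126), about the value of Hmox2.

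**Figure D2:**
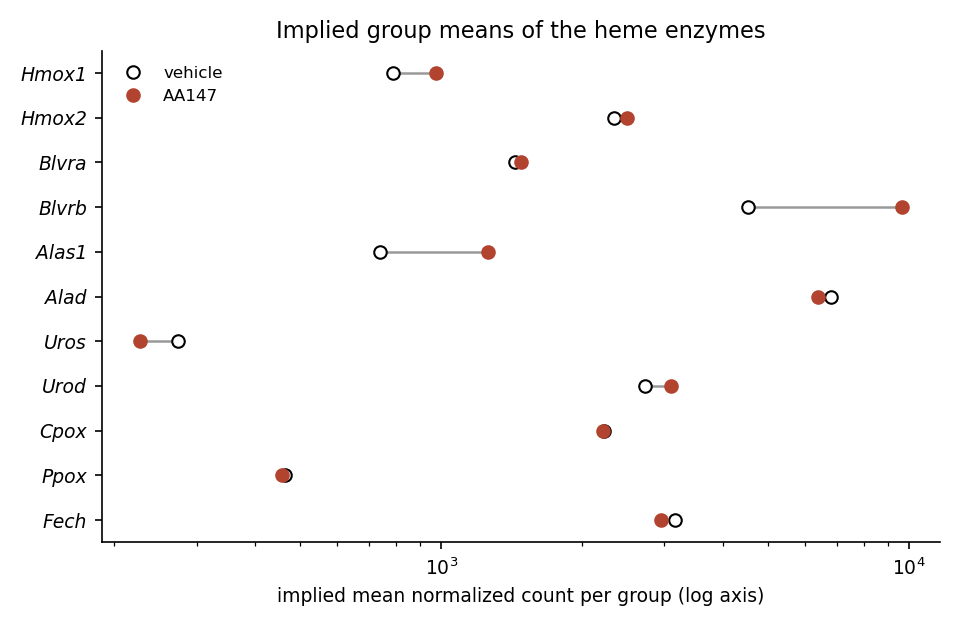
Implied mean normalized count of each enzyme with vehicle (open) and AA147 (filled), on a log axis, derived from the deposited mean and fold change with equal group sizes. The widest steps are those of Blvrb, from 4533 to 9638, and Alas1, from 739 to 1259. The axis is not scaled for transcript length, so rows should not be compared with each other.

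All 5 synthesis genes of the set had slightly negative log2 fold changes and none was called. Their 95% intervals all included 0, and their median was -0.10, against 0.01 for all genes with an adjusted p-value. With an unadjusted p-value, the lowest of the 5 was 0.103, for Uros.

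In pathway order, Alad comes first of the 5. It encodes the cytosolic enzyme that joins a pair of aminolevulinate molecules into the first pyrrole, and it was the most abundant of them, with a mean of 6603 normalized counts in the authors' deposited table. Its log2 fold change there was -0.10 (SE 0.067, adjusted p 0.344), with implied group means of 6822 for vehicle and 6384 for AA147. Uros, which closes the linear tetrapyrrole into uroporphyrinogen III, had the lowest mean of the 9 genes, 250.3 normalized counts in the authors' deposited table. Its log2 fold change of -0.27 was the lowest of the set, but its SE of 0.167 was also the largest, and its 95% interval ran from -0.60 to 0.06 (adjusted p 0.268). The Uros value thus leaves anything from a fold of 0.66 to one of 1.04 within its interval.

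Cpox encodes the oxidase that makes protoporphyrinogen in the space between the mitochondrial membranes. Its log2 fold change was 0.00 to 2 decimals (SE 0.083, adjusted p 0.981) at a mean of 2219 normalized counts in the authors' deposited table, and its interval of the fold, from 0.89 to 1.12, bounds any change on both sides. Ppox, the inner-membrane enzyme that oxidises protoporphyrinogen, lay at -0.02 (SE 0.138, adjusted p 0.945) with a mean of 460.03 normalized counts in the authors' deposited table. Of its canonical exon bases, 39.5% also lie in exons of other genes, B4galt3 among them, which had a log2 fold change of 0.04 in the authors' deposited table. Fech, the ferrochelatase that inserts iron as the last step, lay at -0.10 (SE 0.065, adjusted p 0.334) with a mean of 3051 normalized counts in the authors' deposited table. Its interval ran from -0.22 to 0.03.

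The order of the mean levels per kilobase was alike by either length at its ends only. Blvrb came first, with 6129 normalized counts per kilobase of canonical transcript and 11465 per kilobase of coding sequence, and Alad second, with 1497 and 6670. Ppox and Uros came last, with 163 and 67.4 per kilobase of canonical transcript and 321 and 315 per kilobase of coding sequence. The 5 genes between them changed places with the length used, and the spread of levels over libraries was not analysed here.

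The signs of the 9 genes separated fully by role, with 4 of 4 breakdown genes positive and 5 of 5 synthesis genes negative. The median log2 fold change was 0.20 for breakdown and -0.10 for synthesis, a difference of 0.29. No test was made of the difference between the medians, since genes are not replicates. The separation rested on small values. Of the 9 genes, 7 had intervals that included 0. Leaving out Blvrb moved the breakdown median to 0.09 and the difference to 0.18, and over all single genes left out the difference ran from 0.18 to 0.40.

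**Figure D3:**
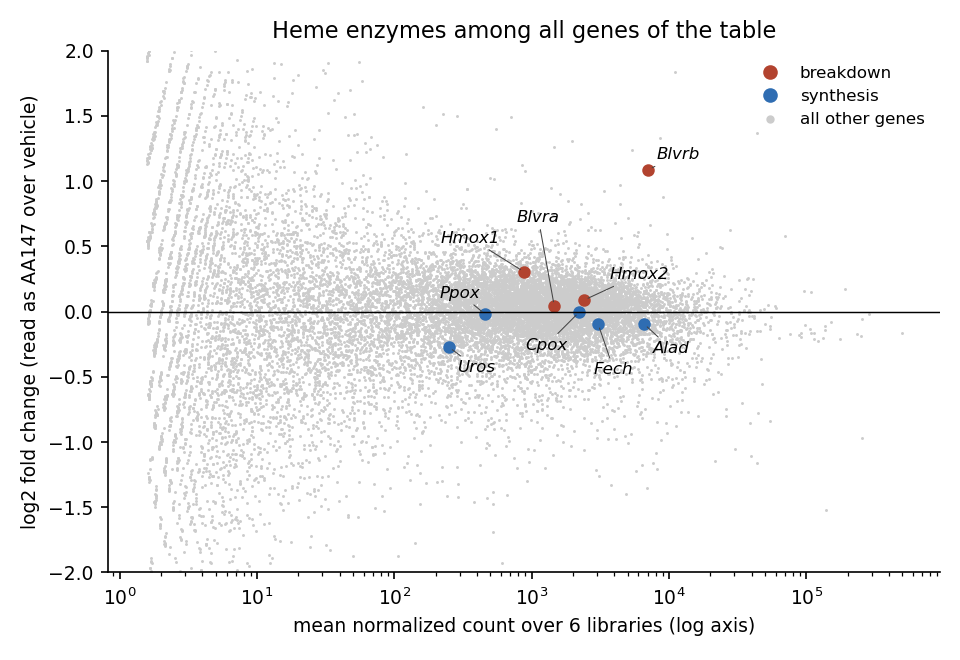
Log2 fold change (vertical axis, read as AA147 over vehicle) against the mean normalized count over 6 libraries (log axis) for all genes of the deposited table, with the 9 heme enzymes in colour. The axis ends at 2 in both directions and leaves out 430 genes, none of them a heme enzyme. Blvrb stands above the cloud at its mean of 7085, while the other 8 lie within it.

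The separation by role did not extend to Alas1 and Urod, enzymes of synthesis outside the set. Alas1, the housekeeping form of the rate-limiting first enzyme, had a mean of 998.9 normalized counts and a log2 fold change of 0.77 (SE 0.087, adjusted p 8.07e-17), per the authors' deposited table. This is a 1.70-fold higher level with a 95% interval from 1.51 to 1.92, and 99.5% of genes with a mean of at least 100 had a lower value. Exons of another gene, 4930500F10Rik, overlap 16.5% of its canonical exon bases. On the log2 scale Hmox1 lay 0.46 below Alas1, with an interval of the difference from -0.74 to -0.19, and Blvrb lay 0.32 above it, with an interval from 0.10 to 0.54.

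Urod, which trims the side chains of the closed ring, was called positive at 0.19 (SE 0.068, adjusted p 0.0350), per the authors' deposited table. That call was lost at an adjusted p under 0.01 and with a Bonferroni adjustment. It was also lost when fold changes were centred on genes with a mean of at least 100 (adjusted p 0.0551). Of the canonical exon bases of Urod, 73.6% also lie in exons of Zswim5. Alas2 had too few counts for an adjusted p-value. With these 3 genes added, 2 of the 7 synthesis genes with an adjusted p-value were called, both positive. That is 28.6%, against the 20.2% of all genes, and the synthesis median over all 8 was -0.06. Calls among the enzymes of both pathways described here thus fell on Alas1 and Urod in synthesis and on Hmox1 and Blvrb in breakdown.

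The genes around the pathway were read from lists of its transporters, cofactors and regulators. Of 11 genes that supply the mitochondrial steps, 1 was called positive and 1 negative, 18.2% against the 20.2% of all genes. Abcb6, a transporter linked to porphyrin transport, had a log2 fold change of 0.76 (SE 0.084, adjusted p 2.61e-17), per the authors' deposited table. Tspo, an outer-membrane protein that binds porphyrins and cholesterol, lay at -0.58 (SE 0.072, adjusted p 2.29e-14) there. The other 9, which include the mitochondrial iron importers and the glycine carrier Slc25a38, were not called. None of the 3 genes that modify heme for cytochromes, Cox10, Cox15 and Hccs, was called by the authors' DESeq2 test, and none had an unadjusted p-value under 0.05.

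Heme transport and binding had 10 of its 11 genes in the table, with 2 called positive and 1 negative. These calls are 33.3% of its 9 genes with an adjusted p-value, against the 20.2% of all genes, and no test was made of the list. Slc48a1, which carries heme out of lysosomes into the cytosol, had a log2 fold change of 0.82 (SE 0.065, adjusted p 3.13e-34) at a mean of 4417 in the authors' deposited table, the largest positive value of this list. Hebp1, a weakly expressed heme-binding gene with a mean of 10.5, lay at -1.04 (SE 0.780, adjusted p 0.390) and was not called, per the authors' deposited table. Pgrmc1, a heme-binding membrane protein, lay at 0.25 (adjusted p 0.00269) and the exporter Abcg2 at -0.34 (adjusted p 0.000163), per the authors' deposited table. The heme exporter Flvcr1, listed under its older symbol Mfsd7b, was not called at 0.08 (SE 0.121, adjusted p 0.730), per the authors' deposited table. Flvcr2 was not analysed here.

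Heme oxygenase draws its electrons from NADPH through the reductase POR. Por had a log2 fold change of -0.15 (SE 0.063, adjusted p 0.0721), per the authors' deposited table and was not called. The same list holds Cyb5r3, the cytochrome b5 reductase, called negative at -0.53 (SE 0.060, adjusted p 8.07e-17), per the authors' deposited table. Its 3 genes of export and glucuronidation with a line were called positive. Their log2 fold changes were 0.33 for Abcc1, 0.35 for Abcc4 and 0.41 for Ugt1a6a in the authors' deposited table. In all, 4 of the 5 genes of this list with a line were called, 80% against the 20.2% of all genes, and the list was not tested. Ugt1a6a shares its last exons with the other genes of its cluster, so its single value is uncertain. Ugt1a1, also on the list, was not analysed here.

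**Figure D4:**
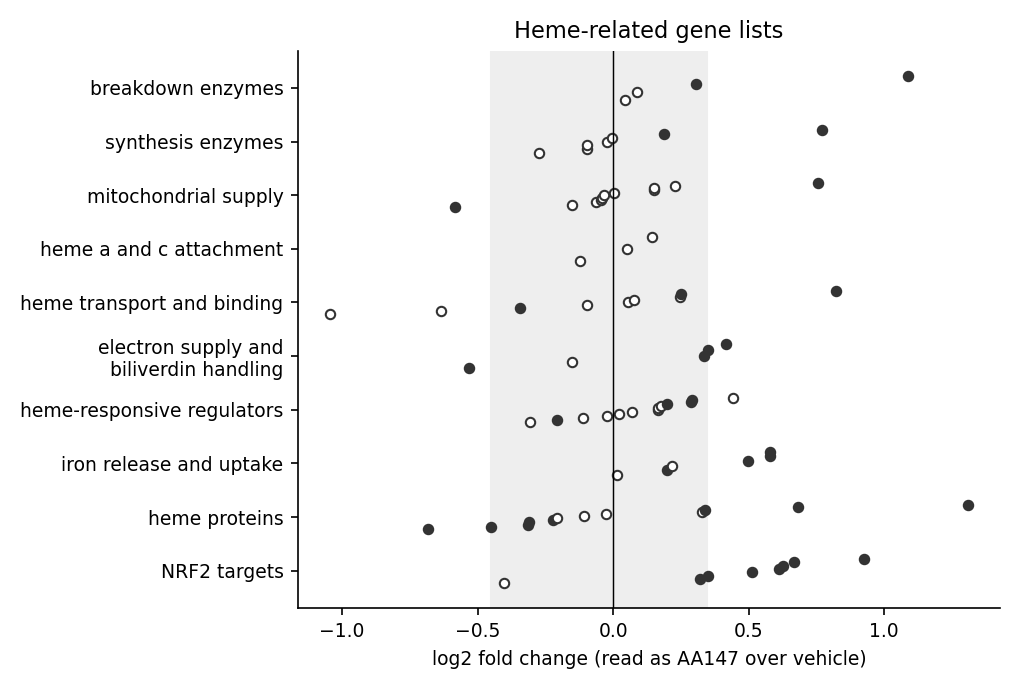
Log2 fold change (horizontal axis, read as AA147 over vehicle) of each gene of the heme-related lists that had an adjusted p-value, 1 point per gene and 1 row per list. Filled points had an adjusted p under 0.05, and the grey band holds the central 90% of genes with a mean of at least 100. Points beyond the band at the right include Alas1 in synthesis, Abcb6 in mitochondrial supply and Slc48a1 in transport.

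Of 13 regulators that answer to heme or act with those that do, 3 were called positive and 1 negative, with called values between -0.21 and 0.29. The called share was 30.8%, against the 20.2% of all genes, and no test was made of the list. The list's extremes were not called, with Bach2 at 0.44 (SE 0.195, adjusted p 0.0935) and Mafk at -0.31 (SE 0.152, adjusted p 0.149), per the authors' deposited table. Bach1, the heme-sensing repressor of Hmox1, was not called at 0.17 (SE 0.103, adjusted p 0.241), per the authors' deposited table. Nfe2l2, which encodes NRF2, was called negative at -0.21 (SE 0.069, adjusted p 0.0174), while its inhibitor Keap1 lay at 0.02 (adjusted p 0.884), per the authors' deposited table. The heme-binding nuclear receptors Nr1d1 and Nr1d2 were both called positive, at 0.29 each, and so was Eif2ak1, the heme-regulated kinase, at 0.20 (adjusted p 0.0435), per the authors' deposited table.

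Iron freed by heme oxygenase is stored in ferritin. All 6 iron genes in the table had positive log2 fold changes, and 4 were called. The ferritin chains Fth1 and Ftl1 lay at 0.58 (SE 0.070) and 0.50 (SE 0.068), the transferrin receptor Tfrc at 0.58 (SE 0.071) and the iron transporter Slc11a2 at 0.20 (SE 0.072), per the authors' deposited table. Fth1 and Ftl1 have processed copies in the genome, so their single values are uncertain. The other 2, Ncoa4 at 0.22 (adjusted p 0.131) and Aco1 at 0.01 (adjusted p 0.919), were not called, per the authors' deposited table. The 4 positive calls of 6 stand beside 9.05% of all genes called positive, and no test was made of the list. The exporter Slc40a1 was not analysed here.

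Beside these, 7 of 8 other NRF2 targets were called positive, against 9.05% of all genes, with a list median of 0.56. The remaining one, the cystine transporter Slc7a11, lay at -0.40 (SE 0.211, adjusted p 0.179) and was not called, per the authors' deposited table. Blvrb at 1.09 exceeded each of them, the highest being Nqo1 at 0.93 (SE 0.067), per the authors' deposited table, while Hmox1 at 0.30 was lower than each of the 7, the nearest being Gclc at 0.32 (SE 0.070). The 95% intervals of Blvrb, from 0.95 to 1.23, and Nqo1, from 0.79 to 1.06, overlapped. So did those of Hmox1, from 0.09 to 0.52, and Gclc, from 0.18 to 0.46. These lists were compared by their values only, and no interval was computed for the differences between these genes. No test was made of the NRF2 list, which was chosen with earlier results of these data known. Its positive signs rest on reading the fold change as AA147 over vehicle.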

How the data were processed

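RNA of HT22 cells for 6 libraries, 3 with AA147 and 3 with vehicle, was sequenced as non-stranded mRNA, per the labels' protocols. DESeq2 and the genome build mm9 are named in the submitters' processing notes, and the aligner, counter and annotation are not given in the sources used here. The authors deposited 1 table with a mean normalized count per gene, a size-factor-scaled signal rather than whole reads. The authors also deposited a log2 fold change with its standard error, a score (the Wald statistic) and raw and adjusted p-values. The adjusted ones matched a Benjamini-Hochberg adjustment over 13597 genes to within 7.58e-07, and 2875 genes had none. The columns of single samples numbered 0, so the depth of each library is unknown, and the standard error is the only measure of precision.

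The members were read by symbol, and intervals are 1.96 standard errors either side. Implied group means assume equal weight of both groups. Standard errors were compared with those of the 500 genes nearest in mean. Lengths and exon overlaps came from canonical transcripts of GENCODE release M39 on GRCm39, promoters from RefSeq on GRCm38.p6. No gene coordinates of the counts are given, because no annotation of mm9 was used. Listed symbols not found were matched to older symbols in the RefSeq table, which added 1 gene. The named genes were the 9 members and, from the context lists, genes with an adjusted p under 0.05, with other genes named for their role after their values were seen. The members and lists were chosen with earlier results of these data known. No gene of like pattern is named, since 1 comparison gives no pattern, and 1 listed enzyme is not reported here. The code that recomputes adjusted p-values was tested on simulated data before use. Python 3.11.15, pandas 2.3.3 and SciPy 1.17.1 were used.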

Additional observations from a re-analysis of the deposited data

How the results depend on the processing

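No paired analysis was possible because single libraries have no values in the deposited table, and for the same reason no replicate could be left out. Of all genes, 1818 rather than 2741 were called at an adjusted p under 0.01, and 774 with a Bonferroni adjustment. Both settings, stricter by construction, left 1 of the 9 enzymes called, Blvrb, which is 1 of the 4 breakdown genes. The synthesis count stayed at 0 under the 6 alternatives run. With the mean in place of the median, breakdown lay at 0.38 and its difference from synthesis at 0.48, since Blvrb weighs on the mean. Centring on 14 reference genes, added after the data were seen, shifted values by 0.0023 and centring on genes with a mean of at least 100 by 0.0132. Of 66 single values of enzymes under these alternatives, 61 kept their sign and call and 5 lost the call, those of Hmox1 and Urod. Precision limits Uros and Ppox most, with standard errors of 0.167 and 0.138.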

Other observations

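Genes of proteins that carry heme did not all move in the same direction. Of 14 such genes, 12 had a line in the authors' deposited table, and 3 were called positive and 5 negative, with a median log2 fold change of -0.16. The called share was 66.7% of the 12 genes, against 20.2% of all genes tested. By direction, all genes had 9.05% called positive and 11.1% called negative, and no test was made of the list. Ptgs2, the inducible cyclooxygenase, had the largest positive value at 1.31 (SE 0.095, adjusted p 1.94e-40), per the authors' deposited table, while its constitutive relative Ptgs1 lay at -0.31 (SE 0.076). Catalase, Cat, which splits hydrogen peroxide, lay at 0.68 (SE 0.067), and Cyb5a, a microsomal cytochrome b5, at 0.34 (SE 0.088), per the authors' deposited table. The called negative genes were the cytochromes P450 Cyp51 at -0.68 (SE 0.054) and Cyp1b1 at -0.45 (SE 0.074), Ptgs1, and the heme-anchoring subunits of respiratory complex II, Sdhc at -0.31 (SE 0.078) and Sdhd at -0.22 (SE 0.073), in the authors' deposited table. Ngb and Cygb were not analysed here.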
